A study of Mus musculus with 16 samples.

Results

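The ES cell array was set beside the 6 arrays of primary tumors to find which genes of the ES cell profile the tumors of both organs lacked and which genes they carried beyond it. The comparison used 7 of the 16 arrays of the series: 1 of ES cells, 3 of kidney tumors and 3 of liver tumors, chosen by their titles. The 3 normal kidney and 3 normal liver arrays served as the level of the tissue without a tumor. Because ES cells were measured once, no group was tested against them, and every statement about ES cells rests on values alone. A gene was counted as lacked when the ES cell array stood at least 2 log2 units, or 4-fold, above each of the 6 tumor arrays, and as added when each tumor array stood that far above the ES cell array.

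The ES cells were of a 129xC57BL6 F1 background. The mice had been made from that ES cell line and carried reprogramming factors that doxycycline (Dox) switches on. Per the design text, Dox was given for 7 days to animals 4 weeks old, and the kidney tumors were examined 7 days after the drug was stopped. Normal kidney was age-matched, and the labels give no treatment or time for the liver groups. The tumors grew in chimeric animals and, according to the labels, can include cells of the ICR host strain, while the rest of the tissue was 129xC57BL6 F1 or a mix of both strains. The labels name neither the promoter behind the factors nor the cells that carried them, and they do not say whether the 3 arrays of a group came from separate animals. The spread between them may therefore be technical in part.

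Embryonic stem cells are kept in a naive state of pluripotency by a network of transcription factors around Oct4, Sox2 and Nanog, with Esrrb, Klf2, Klf4, Tfcp2l1, Prdm14 and Zfp42 (Rex1) as its naive members. When the epiblast implants, most of these naive factors are shut down while Oct4 stays on, and Fgf5, Otx2 and later mesendoderm genes such as Cer1 appear. This later state is called primed. Naive cells also transcribe a set of germline genes whose promoters are rich in CpG and become methylated after implantation.

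The 8 ES cell markers averaged 11.64 log2 units on the ES cell array, 7.94 to 8.30 on kidney tumors, 7.45 to 8.39 on liver tumors and 6.55 to 6.74 on normal tissue. The 5 proximal tubule markers averaged 11.47 to 12.17 on kidney tumors against 13.42 to 13.50 on normal kidney, and the 4 measured hepatocyte markers 13.08 to 13.54 on liver tumors against 13.74 to 13.77 on normal liver. Whether that RNA came from tumor cells or from organ tissue beside them was not tested. In bulk samples, fewer cells of a type and less RNA per cell cannot be told apart. The female-specific transcript Xist stood between 10.19 and 11.35 on 4 of the 6 tumor arrays (replicates 2 and 3 of each organ). It stood between 5.60 and 5.88 on replicate 1 of each, and the ES cell array read 7.84. Genes of the Y chromosome averaged 8.74 and 7.67 on kidney tumors 2 and 3 and 8.56 and 8.24 on liver tumors 2 and 3. The average was 9.42 on kidney tumor 1, 9.32 on liver tumor 1, 9.21 to 9.44 on normal tissue and 8.41 on ES cells. Whether the 4 tumors with Xist signal were female or held cells of both sexes was not tested. Normal kidney 2 and normal liver 1 read 10.21 and 10.78 over 11 adipocyte genes, where the other 4 normal arrays lay between 7.99 and 8.33. The proximal tubule markers averaged 7.51 to 10.19 on normal liver and 7.81 to 8.64 on liver tumors, against 6.80 on the ES cell array. One of them, Kap, read 10.67, 9.77 and 7.08 on normal liver 1 to 3. The source of this tubule signal in liver was not tested.

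Several sequences help to place the results. The microRNA genes Mir302a to Mir302d on chromosome 3 stood above the ES cell array on all 6 tumors, and the 3p arms of Mir302b, Mir302c, Mir302d and the neighbouring Mir367 are shown with the seed, bases 2 to 8 counted from the 5′ end, in capitals. They lie on the plus strand of GRCm38.p6 between 127545275 and 127545800 and are those of RefSeq.
mmu-miR-302b-3p: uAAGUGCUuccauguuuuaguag
mmu-miR-302c-3p: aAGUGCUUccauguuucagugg
mmu-miR-302d-3p: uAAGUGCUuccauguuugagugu
mmu-miR-367-3p: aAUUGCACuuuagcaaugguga
The miR-302b and miR-302d arms have the same seed, that of miR-302c as listed starts 1 base further along the same stretch, and the 3 arms share a run of 16 bases. The seed of miR-367 is a different one. The array measures the precursor gene, not the mature arm.

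Nanog stood among the lacked genes, and the 250 bases before its start (GRCm38.p6, chr6:122707239-122707488, plus strand) are shown with an octamer motif TTTGCAT, the kind bound by Oct4, and the motif ACAATG, the kind bound by Sox factors, in capitals.
Nanog promoter: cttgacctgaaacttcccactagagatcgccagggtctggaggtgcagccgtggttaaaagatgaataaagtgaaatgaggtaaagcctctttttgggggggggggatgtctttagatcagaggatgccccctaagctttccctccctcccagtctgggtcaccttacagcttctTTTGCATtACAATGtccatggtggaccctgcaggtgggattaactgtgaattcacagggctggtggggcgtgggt
Both strands were searched over 32851 RefSeq promoter windows of this length. The octamer letters were found in 4.12% of them and ACAATG in 10.7%, and both 1 base apart in 2 windows, each belonging to a start of Nanog. Such matches are a description and not shown to be sites in these samples.

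Mael and Ddx4, germline genes of the lacked group, are shown because of the CpG density before their starts, with each CG in capitals (Mael, chr1:166238745-166238994; Ddx4, chr13:112652311-112652560; both minus strand, GRCm38.p6).
Mael promoter: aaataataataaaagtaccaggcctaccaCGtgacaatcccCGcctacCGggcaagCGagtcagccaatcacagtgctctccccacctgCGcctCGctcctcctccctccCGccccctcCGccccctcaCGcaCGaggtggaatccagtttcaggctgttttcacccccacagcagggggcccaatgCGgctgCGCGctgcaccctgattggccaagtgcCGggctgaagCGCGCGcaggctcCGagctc
Ddx4 promoter: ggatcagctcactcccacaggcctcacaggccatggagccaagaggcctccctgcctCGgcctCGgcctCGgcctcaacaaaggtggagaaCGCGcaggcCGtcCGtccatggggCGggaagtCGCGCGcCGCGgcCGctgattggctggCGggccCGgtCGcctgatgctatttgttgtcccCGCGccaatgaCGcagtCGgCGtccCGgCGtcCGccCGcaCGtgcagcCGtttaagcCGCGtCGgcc
The Mael window holds 18 CpG and the Ddx4 window 31, against a median of 6 over the 32851 windows. Windows with at least as many made up 21.7% and 5.19% of all. Methylation was not analysed here.

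In both organs alike the tumors lacked 129 of 19938 genes (0.647%) and added 165 (0.828%). The members follow from the rule and are a description. In the kidney tumors taken alone 162 genes stood 4-fold under the ES cell array on all 3 arrays and in the liver tumors 166, so that the 129 common genes made up 79.6% and 77.7% of these lists. The corresponding lists of genes above the ES cell array held 339 and 543 genes, of which the 165 common ones made up 48.7% and 30.4%. All these lists use the same ES cell array, whose own error enters both organs. The common part is therefore not read as agreement between the organs. Single tumor arrays had between 195 and 310 genes 4-fold under the ES cell array and between 455 and 824 above it. The median over all genes lay at -0.07 in kidney tumors and -0.08 in liver tumors relative to ES cells, so the arrays were at a similar overall level.

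**Figure D1:**
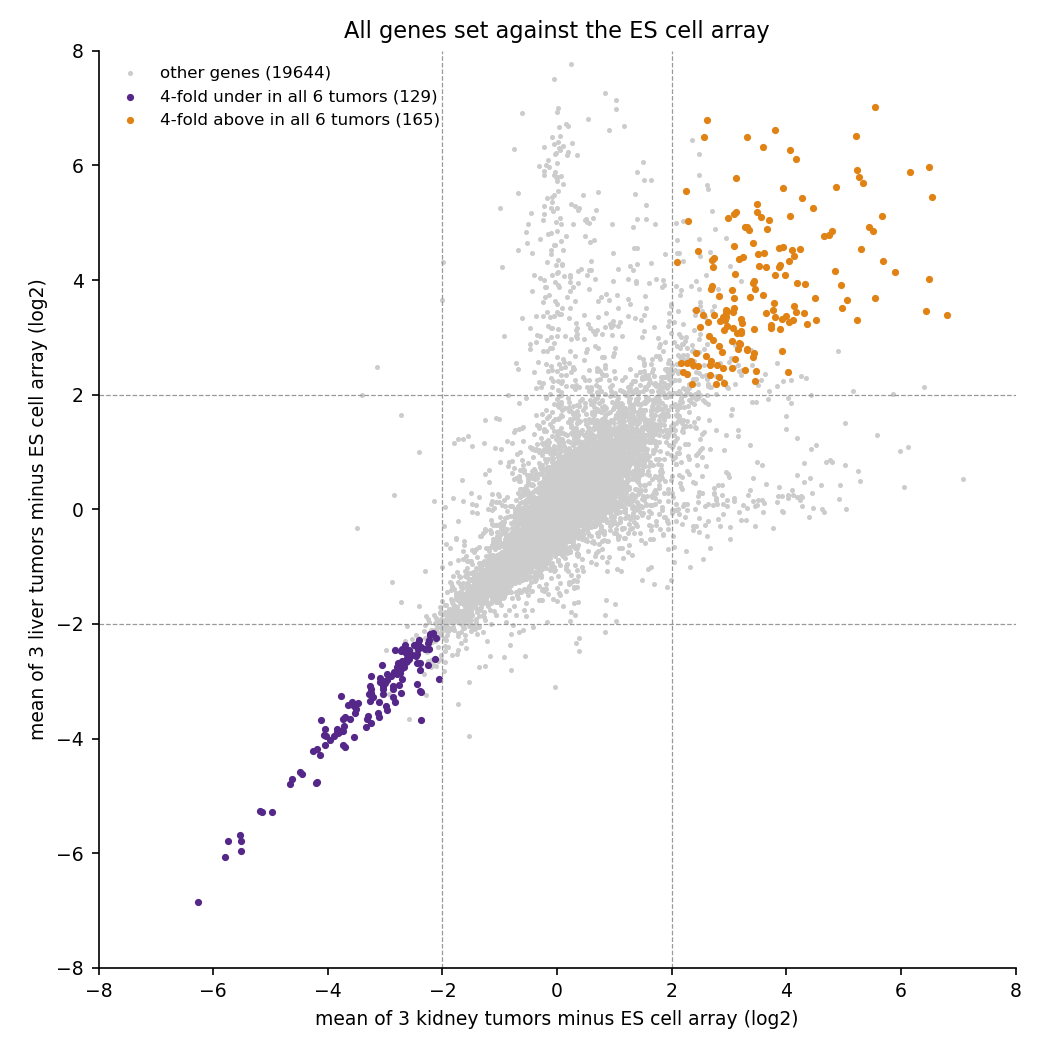
Each dot is 1 of 19938 genes, placed by the mean of 3 kidney tumors minus the ES cell array (horizontal, log2) and the mean of 3 liver tumors minus the same array (vertical, log2). Purple marks the 129 genes lacked by all 6 tumors and orange the 165 added; both axes share the ES cell array, whose own error moves a gene along the diagonal, and dashed lines mark 2 log2 units.

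The widest gaps belonged to genes that mark ES cells and the inner cell mass. Dppa5a, an RNA-binding protein gene of pluripotent cells (probe set 10595156), read 13.03 on the ES cell array and 6.63, 6.53 and 7.12 on the kidney tumors and 6.25, 6.20 and 6.04 on the liver tumors. The normal means were 6.25 ± 0.26 in kidney and 6.39 ± 0.07 in liver (SD, n = 3). The liver tumors stood at tissue level. The kidney tumors read slightly above it, a difference that limma did not call (0.50 ± 0.38, SE, adjusted p 0.281). The highest of the 6 was 60.2-fold under ES cells. Dnmt3l, the cofactor of the de novo DNA methyltransferases, read 11.83 in ES cells, 6.04 to 6.16 in kidney tumors and 5.89 to 6.19 in liver tumors. Dppa2, a chromatin factor of early embryos that works with Dppa4, read 11.77 against 6.04 to 6.37 over the 6 tumors. Fbxo15, an Oct4 target used as a reporter of reprogramming, read 10.98 against 5.13 to 5.71. None of these 4 genes had a tumor array that approached the ES cell value.

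The others of the 15 widest gaps were the long noncoding RNA Lncenc1 (12.54 against 6.36 to 6.89), the zinc finger genes Zfp980 and Zfp640, the Tudor domain gene Tdrd12 (10.74 against 5.88 to 6.18), Epp13, Nr0b1, Pla2g1b, Arl14epl, Mael, Triml2 and Mmp3. Nr0b1, which encodes the orphan receptor Dax1 and is part of the naive network, varied among the tumors: it read 12.11 in ES cells, 7.08, 6.58 and 7.77 in kidney tumors and 6.52, 7.86 and 6.11 in liver tumors. Mmp3, a secreted matrix protease of stromal cells, is not an ES cell gene and is taken up below.

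The lacked genes were also set beside the normal organ. Of the 129 genes, 85 (65.9%) had tumor means within 0.5 log2 units of their own normal tissue in both organs, and 8 (6.2%) had means at least 1 log2 unit above it in both: Nanog, Tdgf1, Mybl2, Upp1, Trim6, Apobec3, Nup62cl and Zfp979 (the last 4 named after their values had been seen). In limma, 23 of the 129 were called higher and 11 lower in kidney tumors than in normal kidney, and 17 higher and 13 lower in liver tumors than in normal liver. Over all genes the calls were 21.7% higher and 28.1% lower in kidney and 21.5% higher and 30.7% lower in liver. The rule that chose the genes uses the same tumor arrays, so nothing is read from those 4 counts. For the same reason the 85 and the 8 are a description, and no share over all genes was computed for them. Without the dimmest 33.3% of genes 55 were lacked, so part of the 129 read low on tumors and normal tissue alike.

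The naive pluripotency factors had the lowest median of the 35 gene lists examined. The list held 22 measured genes, not all of them transcription factors. Of these, 19 stood under the ES cell array on all 6 tumor arrays, against 35.2% of all genes, and none stood above it on all 6. The list median was -2.67 in kidney tumors and -2.65 in liver tumors. The 12 members past the 4-fold line were Nr0b1, Fbxo15, Tcl1, Fgf4, Esrrb, Sox15, Dppa3, Prdm14, Zfp42, Klf2, Nanog and Mybl2. This list, like the others below, was drawn up with earlier results of these data known.

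Esrrb, the nuclear receptor that can stand in for Nanog in naive cells, read 11.33 in ES cells, 7.70, 6.95 and 6.74 in kidney tumors and 6.68, 6.39 and 6.57 in liver tumors. It is also a kidney gene: normal kidney read 8.61 ± 0.06 (SD, n = 3), and the kidney tumors were lower than that by 1.49 ± 0.26 (SE, limma adjusted p 0.000333). Zfp42, the gene of the naive marker Rex1, read 8.60 in ES cells and 5.83 to 6.08 over the 6 tumors, where normal tissue means were 6.0 and 6.20. Prdm14, a repressor of primed genes and of Dnmt3b, read 8.99 against 6.12 to 6.45. Dppa3 (Stella), which protects the maternal genome from demethylation, read 9.24 against 5.79 to 6.09. Fgf4, the ligand that drives ES cells out of the naive state, read 11.64 against 7.65 to 7.91. For these last 4 genes the 6 tumors lay close together and the ES cell array far above.

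Klf2, Klf4 and Klf5, a trio of Krüppel-like factors of naive cells, are used by many adult tissues as well. Klf2 read 10.69 in ES cells and 8.06 to 8.44 in the tumors, with normal means of 8.57 and 8.48. Klf5 read 11.03 against 8.38 to 9.54 and missed the 4-fold line through kidney tumor 1 at 9.54. Tfcp2l1 and Nr5a2 departed from the group, and both are also genes of an organ: Tfcp2l1 read 11.35 in ES cells, 11.35, 10.47 and 9.78 in kidney tumors and 8.04 to 9.11 in liver tumors, and Nr5a2 read 9.68 in ES cells, 9.12 to 9.75 in liver tumors and 6.14 to 6.24 in kidney tumors. Normal kidney stood at 11.62 for Tfcp2l1 and normal liver at 10.39 for Nr5a2. Stat3, the effector of the cytokine LIF, read 10.53 in ES cells and 10.21 to 11.37 in the tumors, so the arrays surrounded the ES cell value.

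**Figure D2:**
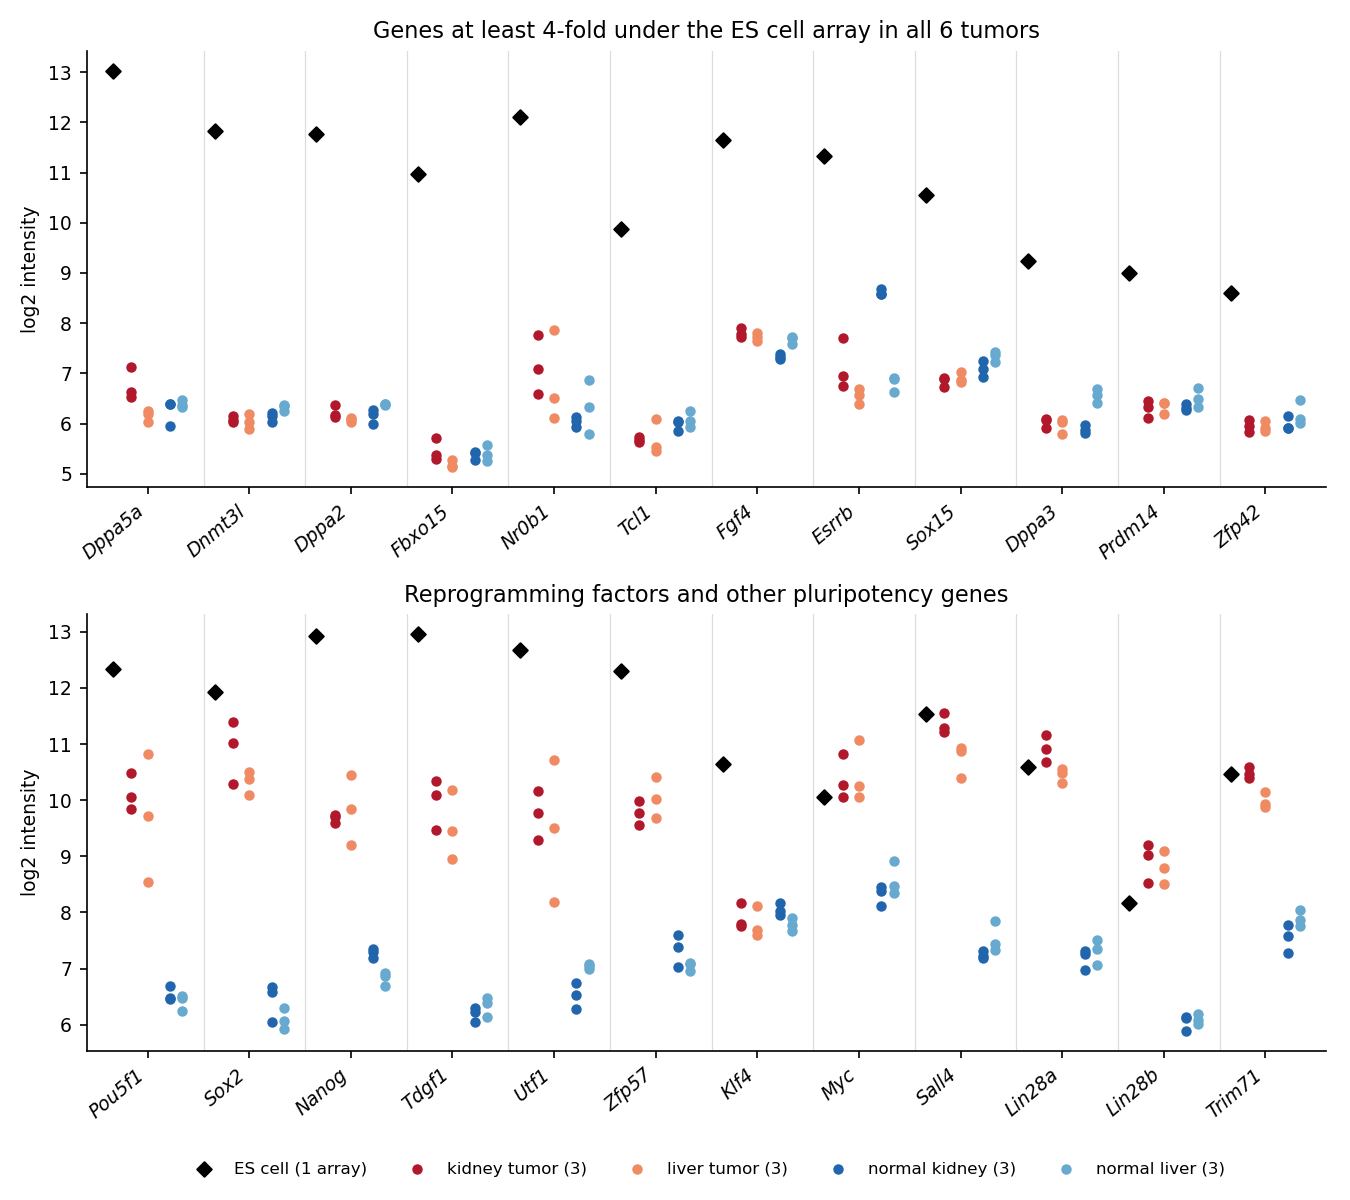
The log2 intensity of 24 genes on the ES cell array (black diamond), 3 kidney tumors (dark red), 3 liver tumors (orange), 3 normal kidneys (dark blue) and 3 normal livers (light blue), 1 symbol per array. In the upper panel the tumors lie with normal tissue for most genes (Dppa5a 13.03 against 6.04 to 7.12); in the lower panel Pou5f1, Nanog, Tdgf1, Utf1 and Zfp57 lie between normal tissue and ES cells, while Sall4, Lin28a and Trim71 lie near the ES cell value.

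The reprogramming factors themselves split 3 ways. Pou5f1, which encodes Oct4 (12.33 in ES cells), read 10.05, 9.85 and 10.48 in kidney tumors and 10.83, 9.72 and 8.55 in liver tumors. All 6 arrays were at least 1.49 log2 units under ES cells, and the liver tumors spread over more than the kidney tumors. Against normal tissue Pou5f1 rose by 3.59 ± 0.42 in kidney and 3.29 ± 0.42 in liver (SE; limma adjusted p 1.71e-05 and 4.9e-05). Sox2 read 11.92 in ES cells, 10.29, 11.02 and 11.39 in kidney tumors and 10.51, 10.38 and 10.10 in liver tumors, closer to ES cells than Oct4. Myc read 10.06 in ES cells and 10.06 to 11.07 in the tumors, and kidney tumor 3 and liver tumor 2 equalled ES cells at 2 decimals. With arrays centred on their medians Myc was no longer above ES cells on all 6. Klf4 was lacked: 10.65 in ES cells against 8.16, 7.76 and 7.80 in kidney tumors and 7.68, 7.59 and 8.11 in liver tumors, with normal means of 8.05 and 7.78. A probe cannot separate the endogenous transcript of these 4 genes from that of an introduced factor where both hold its target.

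Nanog and the genes near it were present at an intermediate level. Nanog (12.93 in ES cells) read 9.59, 9.70 and 9.73 in kidney tumors and 10.45, 9.85 and 9.21 in liver tumors, and it rose over normal tissue by 2.40 ± 0.27 and 3.02 ± 0.27 (SE; limma adjusted p 1.29e-05 and 3.42e-06). Tdgf1 (Cripto), the co-receptor of Nodal, read 12.96 in ES cells, 9.47 to 10.35 in kidney tumors and 8.95 to 10.18 in liver tumors. Utf1, a chromatin protein of undifferentiated cells, read 12.68 against 9.30 to 10.16 and 8.18 to 10.71. Zfp57, which guards the methylation of imprinting control regions, read 12.31 against 9.55 to 9.99 and 9.69 to 10.41. These genes were far under ES cells and far above normal tissue at once, and in liver tumors the third replicate was the lowest for Pou5f1, Nanog, Tdgf1 and Utf1.

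Of 32 further pluripotency genes, 21 stood under the ES cell array on all 6 tumors (35.2% of all genes did) and 2 above it (19.2% of all genes did), with medians of -1.38 and -1.46. Dppa5a, Dppa2, Dppa4, Ooep, Gdf3 and Tdgf1 were lacked. Gdf3, a Nodal-related ligand, read 10.92 in ES cells, 7.01 to 7.33 in kidney tumors and 6.71 to 6.88 in liver tumors, and Dppa4 10.42 against 6.52 to 6.81 over all 6. Lefty1, an inhibitor of Nodal, overlapped the ES cell value: it read 10.02 in ES cells, 9.49, 8.31 and 9.75 in kidney tumors and 9.03, 10.16 and 7.87 in liver tumors. The tumors thus differed widely among themselves in this gene. The 2 genes above ES cells on all 6 arrays were Lin28b, which blocks maturation of let-7 (8.16 in ES cells, 8.51 to 9.20 in the tumors), and Zfp462 (10.27 against 10.38 to 10.99).

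Germline and meiosis genes also stood under ES cells. Of 29 measured, 26 were under the ES cell array on all 6 tumors (35.2% of all genes) and none above it on all 6 (19.2% of all genes); the medians were -1.63 and -1.51. The 8 past the 4-fold line were Dnmt3l, Mael, Ddx4, Rhox9, Sycp3, Tex14, Stag3 and Dazl, of which the last 5 were named after their values had been seen. Ddx4 (Vasa), an RNA helicase of germ cells, read 9.54 in ES cells, 5.38, 5.46 and 5.60 in kidney tumors and 5.47, 5.70 and 5.61 in liver tumors. Mael, needed to silence transposons in the testis, read 9.19 against 5.07 to 5.27. For both, the normal means (5.63 and 5.51, 5.45 and 5.35) lay among or above the tumor values. Against normal tissue 1 of the 29 genes was higher and 3 lower in kidney tumors (21.7% and 28.1% of all genes), and none was higher (0 also at an unadjusted p under 0.05 in limma) and 6 lower in liver tumors (21.5% and 30.7% of all genes). Tdrkh, a piRNA pathway gene, was the 1 that rose in kidney.

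Some lacked genes are not known as pluripotency genes. The ES cell array carried genes of fibroblasts and other mesenchymal cells that were at tissue level in the tumors. Mmp3 read 10.49 in ES cells and 5.81 to 6.06 in the tumors. Thy1, a surface protein of fibroblasts and neurons, read 11.21 against 7.62 to 8.21. Grem1, an antagonist of Bmp ligands, read 10.95 against 7.28 to 7.63, Fgf7, a growth factor made by stroma, 9.10 against 5.72 to 6.07, and the matrix gene Aspn 9.48 against 5.34 to 6.53. Fgf7, Aspn and Col1a1 below were named after their values had been seen. On the ES cell array the 6 fibroblast markers averaged 9.55, against 8.75 to 9.68 on kidney tumors, 9.28 to 10.53 on liver tumors and 8.57 to 10.16 on normal tissue, and Col1a1, the main chain of fibrillar collagen, read 10.55 there. Of the 21 genes of the wider fibroblast and matrix list, which averaged 10.38 on the ES cell array, 7 stood under ES cells on all 6 tumors, 2 above and 12 between. Those 7 are 33.3% of the list, near the 35.2% of all genes. With arrays centred on their medians 13 of the 21 were under. The count over all 19938 genes then rose as well, from 7022 to 9343. The labels do not say whether feeder cells were present in the ES cell culture, and the part of such cells in these values was not tested.

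To place each gene between its normal tissue and ES cells, 109 genes were taken that stood at least 3 log2 units, or 8-fold, above all 6 normal arrays on the ES cell array. A share of 0 means that the tumor mean equals the normal mean of its organ, and 1 that it equals the ES cell value. The median share was 0.29 in kidney tumors and 0.18 in liver tumors. With single tumor arrays in place of means it ran from 0.24 to 0.33 and from 0.10 to 0.27. It also depended on which normal arrays set the gene list: without normal liver 3 the list grew to 137 genes and the medians to 0.42 and 0.33, and without normal liver 1 to 122 genes and 0.34 and 0.31. Without the dimmest 33.3% of genes, 74 genes were left and the medians were 0.50 and 0.46.

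The 109 genes did not move together. In both organs 49 (45.0%) had covered less than 0.25 of the distance and 20 (18.3%) more than 0.75, with 40 elsewhere. The 62 lacked genes among them included Dppa5a, with shares of 0.07 and -0.03. In between lay Nanog at 0.42 and 0.49, Tdgf1 at 0.56 and 0.48, Pou5f1 at 0.62 and 0.56 and Sox2 at 0.81 and 0.73. Igf2, the fetal growth factor, stood apart between the organs: it read 11.45 in ES cells, 12.39, 12.45 and 12.55 in kidney tumors and 8.86, 11.40 and 9.13 in liver tumors, a share of 1.26 and 0.55.

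**Figure D3:**
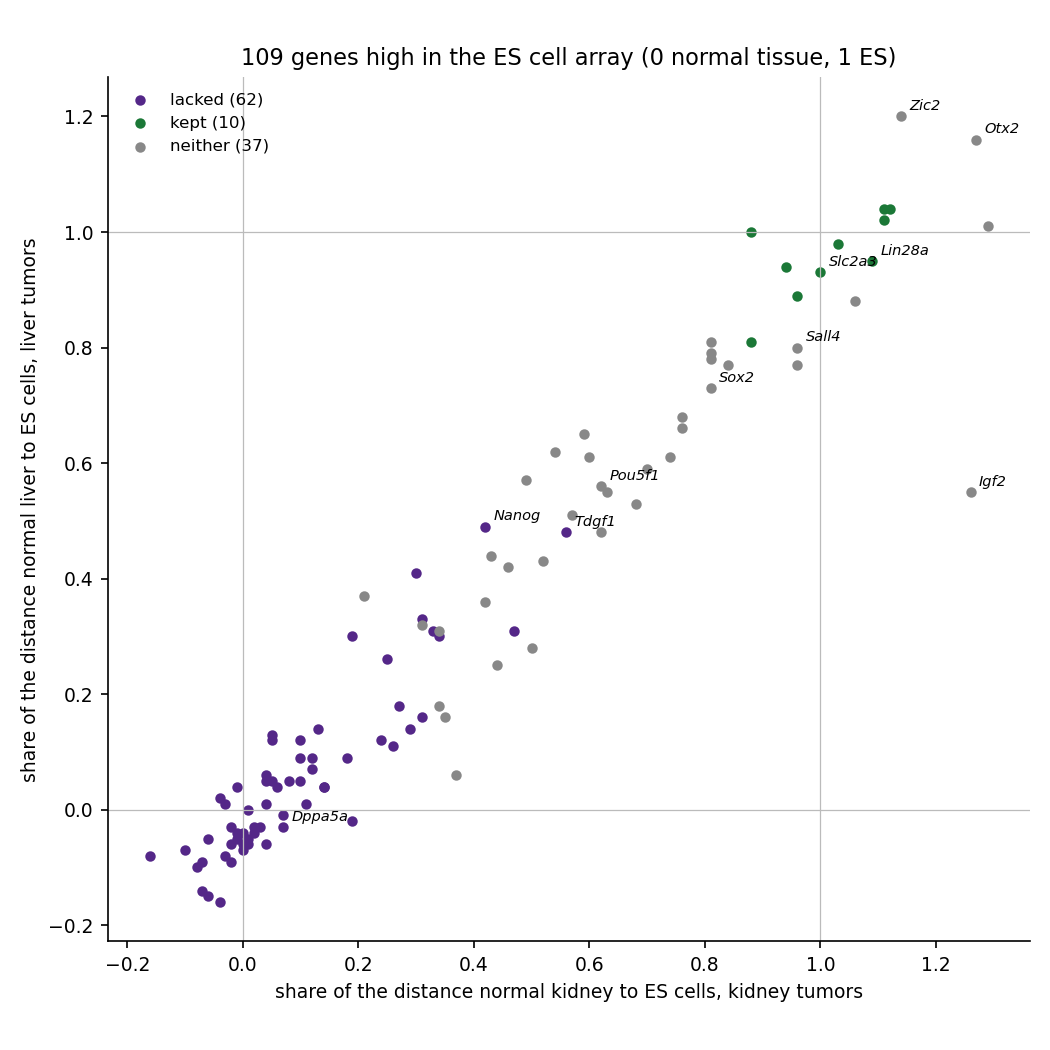
Each dot is 1 of the 109 genes high in the ES cell array; the axes give the share of the distance from normal tissue (0) to ES cells (1) covered by the mean of 3 kidney tumors (horizontal) and 3 liver tumors (vertical). Purple marks the 62 lacked genes, green the 10 kept and grey the 37 that are neither; both axes use the same ES cell array, which alone pulls the dots toward the diagonal.

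The 10 kept genes had all 6 tumors within 1 log2 unit of ES cells. Slc2a3 (Glut3), the high-affinity glucose transporter of embryos and neurons, read 12.99 in ES cells, 13.12, 12.96 and 12.83 in kidney tumors and 12.39, 12.87 and 12.60 in liver tumors, where normal tissue stood at 7.19 and 7.79. Crabp1, a retinoic acid binding protein, read 12.43 against 12.35 to 13.19. Igf2bp1, a fetal RNA-binding protein that stabilises growth transcripts, read 11.63 against 10.96 to 11.70, and Lin28a, the paralog of Lin28b, 10.60 against 10.30 to 11.17. The lactate exporter Slc16a3 (11.51 against 11.03 to 11.54), the glutamine transporter Slc38a1 (11.05 against 10.80 to 11.45), Rcor2, Tmeff1, Zic5 and B3gnt5 completed the group. All 10 rose over normal tissue in both organs, Lin28a for example by 3.74 ± 0.15 and 3.14 ± 0.15 (SE; limma adjusted p 8.41e-09 and 2.89e-08), but the rule of being high in ES cells and kept in tumors implies that direction.

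Some genes past a share of 0.75 in both organs exceeded ES cells. Otx2, the head and epiblast transcription factor, read 10.10 in ES cells, 11.07, 10.96 and 11.43 in kidney tumors and 10.90, 11.43 and 9.86 in liver tumors. Zic2, a zinc finger factor of the epiblast and neural plate, read 10.23 against 10.58 to 11.36. Trh, the thyrotropin-releasing hormone precursor, read 11.22 against 12.37 to 12.80 in kidney tumors and 10.64 to 11.58 in liver tumors. The tumors of the kidney were above ES cells on every array for these 3 genes, and 1 liver tumor was under for Otx2 and Trh. Otx2, Zic2 and Trh were named after their values had been seen.

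The primed epiblast and mesendoderm list stood above ES cells in both organs. Of 19 measured genes, 16 were above the ES cell array on all 6 tumors, against 19.2% of all genes, and none was under it on all 6. The medians were 1.28 in kidney tumors and 0.98 in liver tumors. Cer1, a secreted antagonist of Nodal, Bmp and Wnt made by anterior endoderm, read 6.79 in ES cells, 11.79, 11.34 and 12.11 in kidney tumors and 10.38, 12.26 and 9.48 in liver tumors. Cyp26a1, the enzyme that breaks down retinoic acid, read 6.39 against 10.20 to 10.75 and 8.97 to 10.63. Fgf5, the standard marker of the primed epiblast, read 7.09 against a mean of 10.26 ± 0.27 (SD, n = 3) in kidney tumors and 8.53 to 10.48 in liver tumors. All 3 were lowest in a liver tumor and still above ES cells there.

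Against normal tissue 18 of these 19 genes were higher in kidney tumors (21.7% of all genes) and 12 in liver tumors (21.5%), and none was lower in either (0 also at an unadjusted p under 0.05 in limma). Cer1 rose by 5.69 ± 0.51 and 4.28 ± 0.51 and Fgf5 by 3.50 ± 0.35 and 2.31 ± 0.35 (SE; limma adjusted p at most 0.00018 in these 4 comparisons). Dnmt3b, the de novo methyltransferase that is raised on priming, read 10.50 in ES cells, 10.56 to 11.01 in kidney tumors and 10.91, 10.25 and 9.36 in liver tumors. Pou3f1 (Oct6), another factor of the primed state, read 8.39 against 8.14 to 8.57. With Otx2, these were the 3 genes of the list whose tumor arrays lay on both sides of the ES cell value.

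The genes of the Mir302 cluster, known from the primed epiblast, also stood above ES cells. Of the 14 entries of the Mir290 and Mir302 list, only Mir302a to Mir302d and Mir367 were measured, so the Mir290 cluster is not covered. Of these 5 genes, 4 stood above ES cells on all 6 tumors, against 19.2% of all genes. The 5 averaged 5.19 on the ES cell array and 4.83 to 4.93 on normal tissue, close to the low end of the arrays. Mir302d read 5.82 on the ES cell array, 7.91, 7.07 and 7.74 in kidney tumors and 9.60, 7.25 and 6.24 in liver tumors. Mir302a read 4.97 against 6.57 to 7.48 and 5.69 to 8.72. Mir302b and Mir302c were above ES cells on all 6 arrays too, Mir302b by as little as 0.11 in liver tumor 3, and Mir367 on 5 of 6. The arms shown above with the seed AAGUGCU come from these genes. Mir302a to Mir302d were higher than in normal tissue in both organs (21.7% and 21.5% of all genes were). Mir302d rose by 2.30 ± 0.59 and 2.23 ± 0.59 (SE, limma adjusted p 0.00526 and 0.00712), and Mir367 did not pass (adjusted p 0.205 and 0.0579). Liver tumor 1 was the highest array and liver tumor 3 the lowest for each of the 5 genes.

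**Figure D4:**
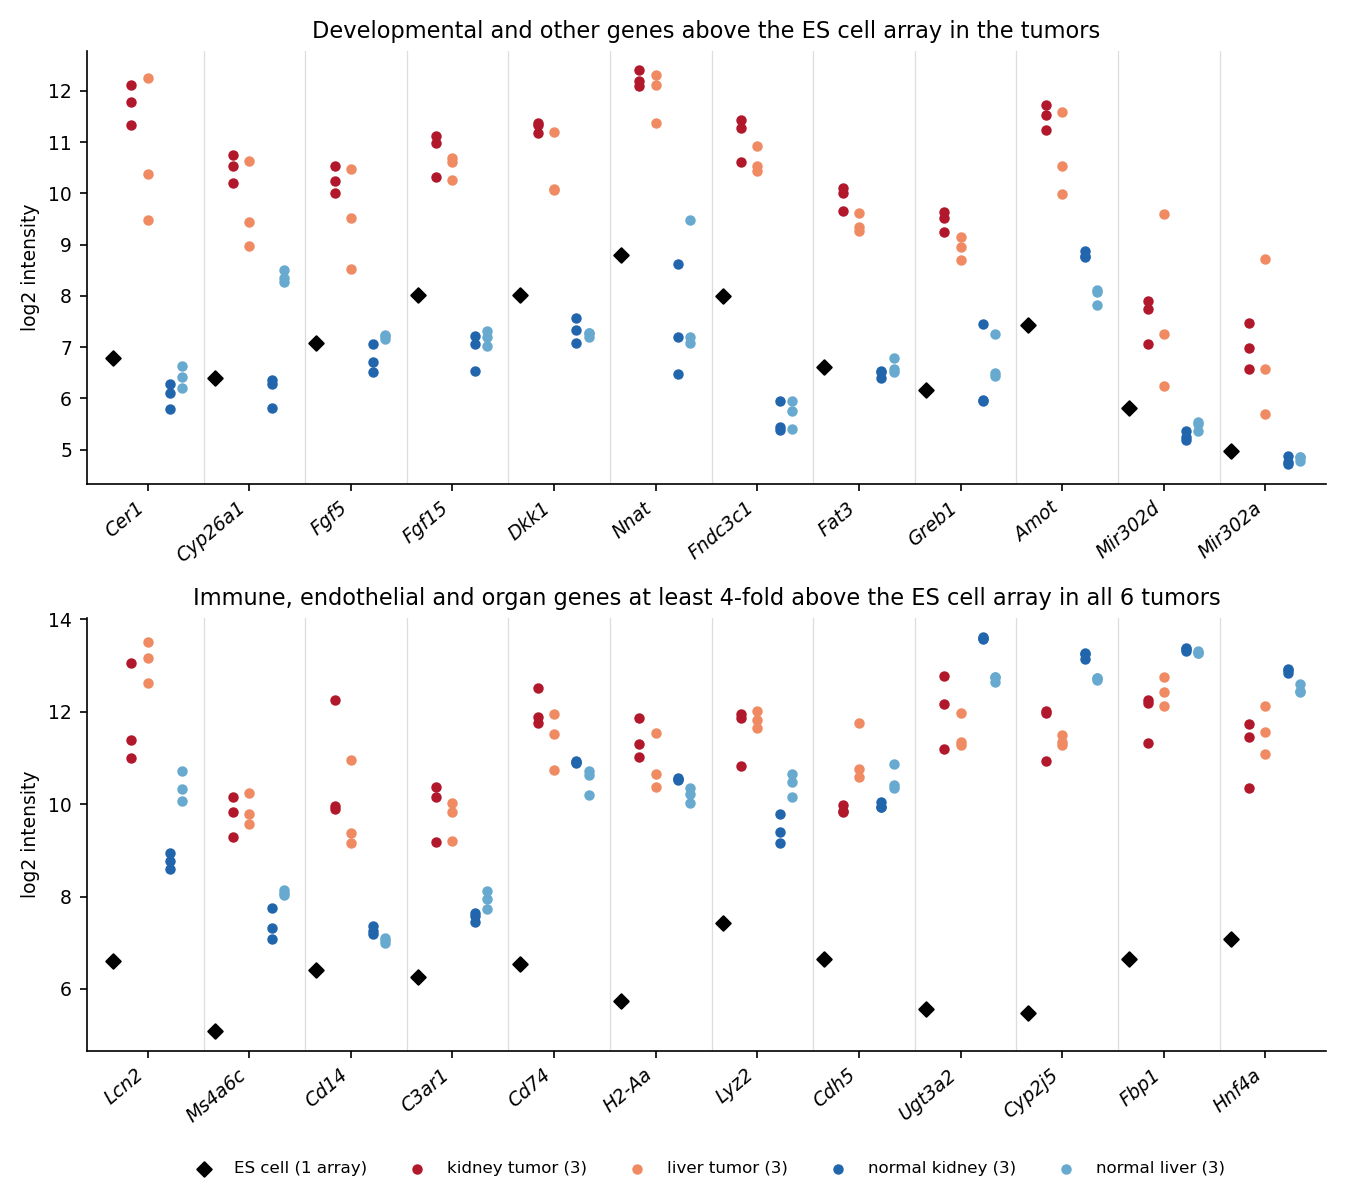
The log2 intensity of 24 genes on each array, with symbols for ES cells, kidney tumors, liver tumors, normal kidney and normal liver as in the legend. In the upper panel the tumors are above ES cells and normal tissue (Cer1 6.79 in ES cells, 9.48 to 12.26 in tumors); in the lower panel organ genes such as Ugt3a2 are highest in normal tissue and lowest in ES cells.

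The 165 added genes were set beside normal tissue. Of them 102 (61.8%) also stood 4-fold above ES cells on all 6 normal arrays, which was 24.9% of the 410 genes that did so. Another 24 (14.5%) were in both organs at least 1 log2 unit above every normal array of the organ, which does not mean that normal tissue lacked them. The other 39 (23.6%) met neither rule. The set of 102 was led by enzymes shared by proximal tubule and hepatocyte. Ugt3a2, a conjugating glycosyltransferase, read 5.56 in ES cells, 12.77, 12.16 and 11.19 in kidney tumors and 11.98, 11.28 and 11.35 in liver tumors, with normal means of 13.59 and 12.72. The cytochrome Cyp2j5 read 5.49 against 10.93 to 12.01, with 13.23 and 12.71 in normal tissue. Fbp1 and Pck1, both steps of gluconeogenesis, read 6.65 against 11.32 to 12.76 and 6.63 against 10.84 to 12.79. Hgd, Cyp2e1, Sult1d1, Acnat2 and Glyat, other enzymes of small molecule metabolism, were among the 15 widest gaps as well. So were Wfdc17, at 5.71 in ES cells and 10.03 to 11.69 in the tumors, and Fabp7, a fatty acid binding protein gene of neural progenitors. Fabp7 read 6.76 in ES cells, 11.90, 12.60 and 12.82 in kidney tumors and 10.74, 11.29 and 11.24 in liver tumors.

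In kidney tumors 62 of the 165 were higher and 75 lower than in normal kidney, and in liver tumors 51 were higher and 57 lower than in normal liver. Over all genes the shares were 21.7% and 28.1% in kidney and 21.5% and 30.7% in liver, and as the rule uses the same tumor arrays nothing is read from these counts. Cyp2j5, for example, fell by 1.59 ± 0.21 and 1.33 ± 0.21 (SE; limma adjusted p 4.88e-05 and 0.000263). The proximal tubule list (24 genes) had a median of 4.25 above ES cells in kidney tumors and 0.77 in liver tumors, and the hepatocyte list (24 genes) 1.00 and 5.77. Hnf4a, the transcription factor common to both tissues, read 7.08 in ES cells, 11.74, 11.45 and 10.35 in kidney tumors and 12.12, 11.57 and 11.09 in liver tumors, under its normal means of 12.88 and 12.49.

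Myeloid genes had the highest share of members above ES cells on all 6 tumors among the 35 lists. Of 22 measured, 10 were added (0.828% of all genes) and 21 stood above ES cells on all 6 tumors (19.2% of all genes); the medians were 2.30 and 2.82. Lyz2, the lysozyme of macrophages, read 7.42 in ES cells, 10.82, 11.95 and 11.86 in kidney tumors and 11.65, 11.83 and 12.02 in liver tumors. Cd74, the invariant chain of class II antigen presentation, read 6.54 against 10.74 to 12.52, and the complement gene C1qb 6.89 against 10.63 to 11.41. Outside the list, the class II chain gene H2-Aa read 5.75 against 10.37 to 11.86. In kidney tumors 17 of the 22 were higher than in normal kidney (21.7% of all genes) and 1 lower (Csf1r, the macrophage growth factor receptor, named after its value had been seen). In liver tumors 13 were higher (21.5% of all genes) and none lower (0 also at an unadjusted p under 0.05 in limma). Endothelial genes were also above ES cells (14 of 18 on all 6 arrays, against 19.2% of all genes), and Cdh5, Kdr and Emcn were added. In kidney tumors none of the 18 was higher than in normal kidney (0 also at an unadjusted p under 0.05 in limma) and 12 were lower (28.1% of all genes). In liver tumors Flt1 was higher and Ptprb lower than in normal liver, both named after their values had been seen, and the list averaged 9.07 to 9.91 there against 9.09 to 9.55. Pecam1 overlapped ES cells, at 9.72 in ES cells and 8.33 to 10.21 in the tumors; ES cells are known to express it.

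The 24 genes above both ES cells and normal tissue included genes of several kinds. Lcn2, an iron-scavenging protein of injured epithelium and neutrophils, read 6.60 in ES cells, 13.06, 11.38 and 10.99 in kidney tumors and 13.52, 12.63 and 13.17 in liver tumors, with normal means of 8.77 and 10.37. The macrophage genes Ms4a6c, Ms4a6d and C3ar1 and the endotoxin receptor gene Cd14 were in this set; Cd14 read 6.40 against 12.25, 9.97 and 9.89 in kidney tumors and 9.15, 9.37 and 10.96 in liver tumors. Nnat, an imprinted gene of the developing brain, read 8.79 against 12.09 to 12.40 and 11.37 to 12.32. Fndc3c1 read 8.0 against 10.44 to 11.43, the giant cadherin gene Fat3 6.61 against 9.27 to 10.11, the potassium channel gene Kcnma1 6.62 against 9.25 to 10.37, the Hippo regulator Amot 7.44 against 9.98 to 11.72 and the hormone-responsive gene Greb1 6.16 against 8.71 to 9.63. Dkk1, a Wnt antagonist (8.02 against 10.06 to 11.38), and Fgf15, a ligand of embryo and gut (8.02 against 10.27 to 11.13), were also there. Their excess over normal tissue is part of the rule that picked them.

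The 38 cell cycle genes stood close under ES cells: 31 were under on all 6 arrays (35.2% of all genes) and Mki67 alone was above (19.2% of all genes), with medians of -0.70 and -0.96. Mki67, the proliferation antigen, read 10.59 in ES cells, 10.83 to 11.47 in kidney tumors and 10.77 to 11.33 in liver tumors, and the G1 cyclin gene Ccne1 12.14 against 9.90 to 10.85 and 9.63 to 10.19. All 38 rose over normal kidney (21.7% of all genes) and 33 over normal liver (21.5%). Of 20 ribosome biogenesis genes, 18 stood under ES cells on all 6 arrays (35.2% of all genes), with medians of -0.58 and -0.70, and 20 and 18 were higher than in normal kidney and liver (21.7% and 21.5% of all genes). Of 26 Polycomb genes 16 were under on all 6 arrays (35.2% of all genes) and 5 above, which is 19.2% and the same as over all genes. Phf19 read 9.04 in ES cells and 6.75 to 7.07 in the tumors, and Bmi1 8.62 against 8.94 to 9.93.

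Among the 15 DNA methylation genes, 8 stood under ES cells on all 6 tumors (35.2% of all genes) and 4 above (19.2% of all genes), with medians of -0.27 and -0.60. Dnmt3l was at tissue level as given above. Tet1, the methylcytosine dioxygenase of ES cells, read 10.05 to 10.41 in the tumors, whose kidney mean stood under ES cells (difference of -1.71 on the log2 scale), and its relative Tet3 read 7.73 against 9.48 to 9.99, above ES cells on all 6 arrays. Uhrf2 read 9.17 against 9.61 to 10.42. Both Tet genes were higher than in normal tissue in both organs (limma adjusted p at most 0.00122).

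**Figure D5:**
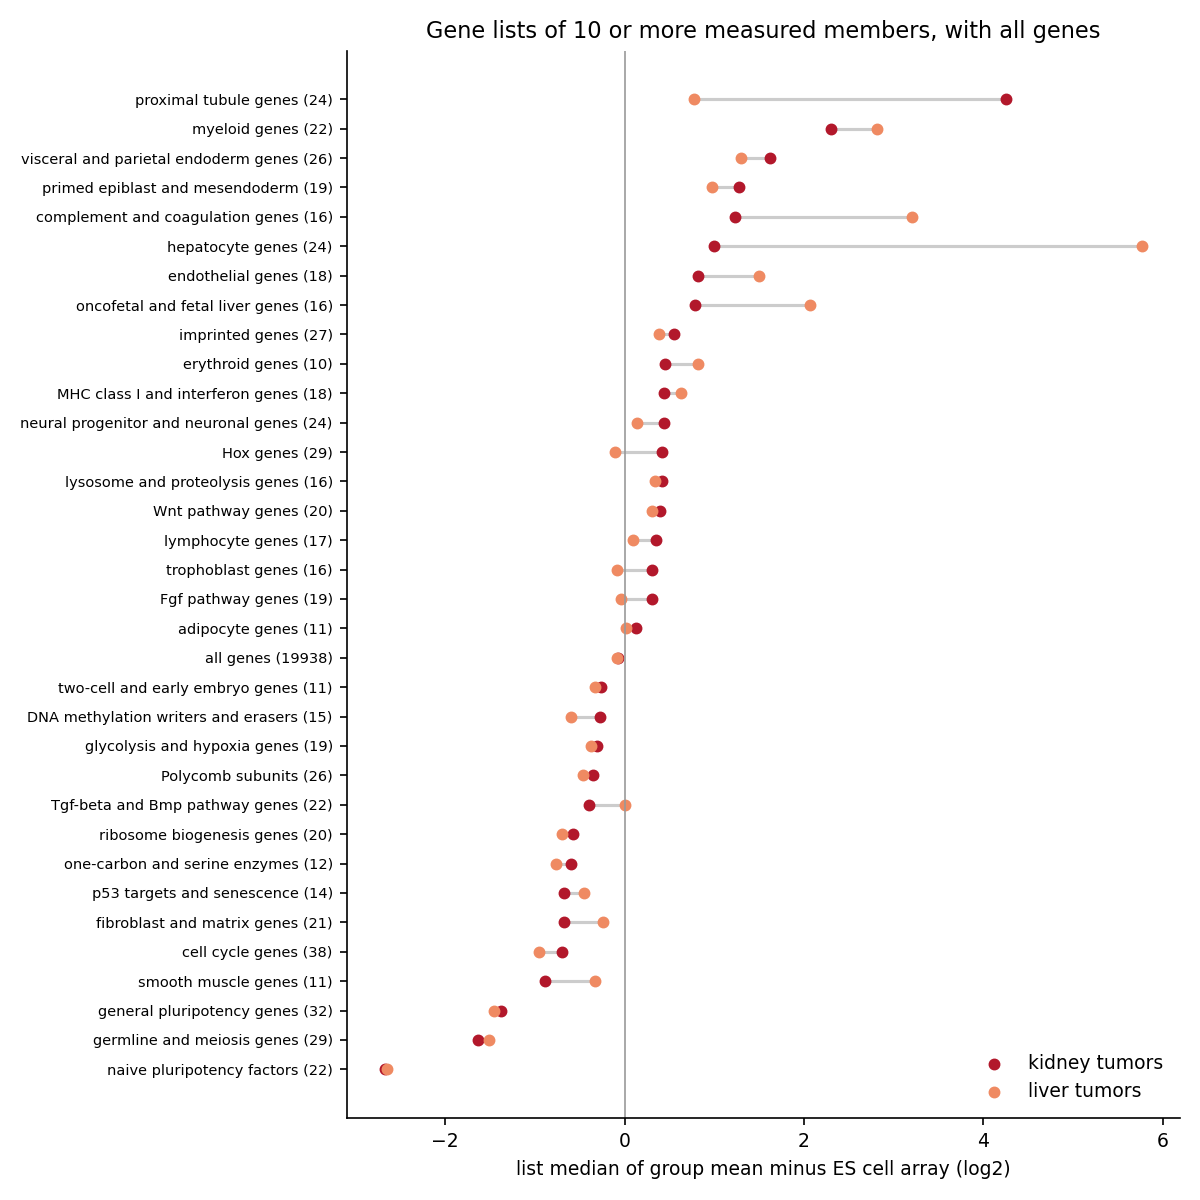
The median over each gene list of the group mean minus the ES cell array (log2) for kidney tumors (dark red) and liver tumors (orange), for the lists with 10 or more measured members, whose number is in brackets, and for all genes. Naive pluripotency factors are lowest in both organs (-2.67 and -2.65); proximal tubule and hepatocyte lists are far apart between the organs.

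Kidney and liver tumors were also tested against each other, which does not involve the ES cell array. In limma 2584 of 19938 genes (13.0%) differed, 1407 higher in kidney tumors and 1177 higher in liver tumors. With only these 2 groups in the fit the count was 948. Of the 129 lacked genes 4 differed, all higher in kidney tumors: Upp1, Slc35f2, Pmm1 and Zswim1. Upp1, a uridine phosphorylase, read 9.58, 9.41 and 9.70 in kidney tumors and 8.57, 8.84 and 8.86 in liver tumors (11.95 in ES cells). Of the 165 added genes 57 differed, 17 higher in kidney and 40 higher in liver tumors. The plasma protein genes Apoa1, Ttr, Fgb and Rbp4 were higher in liver tumors; Apoa1 read 10.81, 10.39 and 10.41 against 13.78, 13.65 and 13.70, with 7.22 in ES cells. Kap, the kidney androgen-regulated protein gene, was higher in kidney tumors at 13.31, 12.21 and 12.12 against 9.33, 10.06 and 8.02. Of the 10 kept genes limma called 0, with 2 at an unadjusted p under 0.05. Of the 24 genes above normal tissue 3 were called, all higher in kidney tumors (Dkk1, Fat3 and Igdcc3, the last named after its value had been seen). The rules that formed these groups use the same tumor arrays, so their shares are not read against the 13.0%. Of the 22 genes on the naive list 3 differed (Tfcp2l1, Nr5a2 and Manba, the last a lysosomal enzyme gene). Limma called 0 of the 29 germline genes and 0 of the 19 primed genes, with 2 and 6 at an unadjusted p under 0.05.

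The line of 4-fold was crossed narrowly by some genes. Pla2g10 and Zswim1 entered the lacked group with gaps of 2.012 and 2.014 log2 units, and Aire and Ptgs2 stayed out with 1.996 each. Ly6g2 and Tmem176b entered the added group with 2.002 each, and Fzd3 and Frmd4b stayed out with 1.997 each. The arrays carry no detection call, so values near the low end cannot be told from background.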

How the data were processed

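RNA from 16 samples was measured on Affymetrix Mouse Gene 1.0 ST arrays, 1 array per sample. The authors deposited linear intensity values for 28856 probe sets, from 20.7 to 20262, with array medians between 191 and 226. Per the submitters' processing notes the genome build was mm9. The normalization tool is not given in the sources used here, and no detection call was used. The values were taken to log2 without rescaling. Of the probe sets, 21789 carried 1 gene symbol in the platform annotation, 1621 several and 5446 none. Those with 1 symbol gave 19938 genes, each represented by its probe set of highest mean over all 16 arrays (999 genes had more than 1).

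Samples were grouped by title. With 1 ES cell array, comparisons with ES cells are counts and values without a test. For the replicated groups a linear model of limma (version 3.58.1, R 4.3.3) held all 16 arrays and 1 coefficient per group, with 10 residual and 2.66 prior degrees of freedom. P-values were 2-sided, adjusted by Benjamini-Hochberg over all genes and called under 0.05. The code was tested on simulated data. The number of arrays limits the precision. Alternatives were another scaling, a filter on dim genes, other thresholds, group means, other fits and leaving out arrays.

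The members and gene lists were chosen with earlier results of these data known. Named were the 15 lacked and 15 added genes of widest gap, the 12 of widest gap above normal tissue and up to 12 kept genes of highest ES cell value. From each list came the 3 members furthest under and the 3 furthest above ES cells, and all of the reprogramming, naive, general pluripotency and microRNA cluster lists. Also named were the genes nearest each threshold, and up to 5 lacked and 5 added genes of largest called difference between the tumors. Predicted genes, receptors of smell and immunoglobulin segments were left out. Sequences came from RefSeq tables of GRCm38.p6, matched by symbol. Python 3.11.15, pandas 2.3.3, numpy 2.4.6 and matplotlib 3.10.9 were used.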

Additional observations from a re-analysis of the deposited data

Results flagged for a closer look

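Several genes named above differed between kidney and liver tumors in limma (kidney minus liver, log2, adjusted p under 0.05 over all genes). Among genes higher in liver tumors were the plasma protein genes Apoa1 (-3.18), Fgb (-4.18), Rbp4 (-3.31) and Ttr (-3.92), the nuclear receptor gene Nr5a2 (-3.16), Ly6g2 (-1.65), the endothelial cadherin gene Cdh5 (-1.15), the endothelial phosphatase gene Ptprb (-1.03) and Csf1r (-0.83). Among genes higher in kidney tumors were Kap (3.41), Igf2 (2.67), Tfcp2l1 (2.00), Fabp7 (1.35), Trh (1.28), Slc35f2 (0.89), Dkk1 (0.85), Upp1 (0.81), Fzd3 (0.67), Sall4 (0.62), Manba (0.55), Fat3 (0.52), Trim71 (0.50), Zswim1 (0.48), Pmm1 (0.47) and Igdcc3 (0.72).

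The 3 arrays of secondary kidney tumors were in none of the groups compared above. They were part of the limma fit, which pooled their spread with that of the other groups, and of the mean that chose each probe set. On them, 13 of the 129 lacked genes (10.1%) read at least 1 log2 unit above the highest primary tumor array on all 3, as did 777 of all genes (3.9%). They include the oligodendrocyte lineage genes Olig1 (9.04, 9.91 and 10.07) and Olig2 (8.74, 9.23 and 9.40), Aspn (10.20, 10.03 and 9.22) and Mael (6.59, 7.50 and 8.0). The rule that chose the 129 genes uses the same primary tumor arrays, so the 10.1% is not read against the 3.9%. Of the 129 genes, 90 (69.8%) stood 4-fold under ES cells on all 3 secondary arrays too. Olig1 and Olig2 were named after their values had been seen.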

How the results depend on the processing

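Counts and values against ES cells rest on 1 array, whose own error is unknown. Without the dimmest 33.3% of genes, a filter on the mean over 16 arrays that removes genes seen on the ES cell array alone, 55 genes were lacked and 29 of 74 high in ES cells were, with median shares of 0.50 in kidney and 0.46 in liver. A threshold of 1 log2 unit gave 568 lacked, 578 added and 52 above normal tissue, and 1 of 3 log2 units gave 50, 50 and 2. Group means gave 311 added genes, a band of 2 log2 units 25 kept genes, and a fit of the compared groups alone 948 differences between the tumors. Without the 4 tumor arrays with Xist signal, chosen after seeing the data, 207 genes were lacked and 306 added, the shares were 0.24 in kidney and 0.10 in liver, and 6892 genes differed between liver tumor and normal liver. These counts rest on fewer arrays, and for lacked and added genes fewer arrays can only keep or raise the count. Without normal kidney 2 and normal liver 1, also chosen after seeing the data, the liver share was 0.31.

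Leaving out 1 array at a time gave 131 to 138 lacked and 167 to 210 added genes, 62 to 67 lacked genes among those high in ES cells, 10 to 14 kept and 24 to 34 above normal tissue. Each of these rules requires every array to pass, so leaving out an array can only keep or raise the count. The median share ran from 0.25 to 0.42 in kidney and from 0.13 to 0.33 in liver. The limma calls ran from 1906 to 3847 between the tumors, from 8373 to 10040 in kidney and from 8575 to 10860 in liver. Quantile normalization gave 126 of the 129 lacked genes and 154 of the 165 added ones. Centring the arrays on their medians moved the median of all genes to -0.17 and -0.18 and gave all 129 lacked genes and 146 added ones. Lacked and added genes lie at least 2 log2 units from ES cells, too far for these 2 scalings to turn their direction. Some named genes close to the ES cell value did change sign in the mean of 6 tumors minus ES cells. With centring Lin28a went from 0.08 to -0.02 and Slc38a1 from 0.03 to -0.07. With quantile normalization Dnmt3b went from -0.04 to 0.07.

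Same-numbered arrays of different groups did not deviate together throughout (correlations of 0.27, 0.25 and 0.00 between the tumors, 0.05 to 0.06 in kidney and -0.28 to -0.11 in liver), so they were not treated as pairs. Xist signal was present on replicates 2 and 3 and not on replicate 1 in both organs, and a shared animal per number was not tested. With the replicate number as a block, limma called 2488 genes between the tumors, 9797 in kidney and 10246 in liver.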
